A study of Mus musculus with 5 samples.

Results

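The genes described here are 8 genes of fatty acid synthesis and of the NADPH it consumes: Acly, Acaca, Fasn, Scd1, Scd2, Idh1, Me1 and the regulator Srebf1. They were measured in the leukocytes of the pancreas of NOD mice, a strain that develops autoimmune diabetes spontaneously. They are 8 of the 19938 genes that had a probe set of their own on the array, and each is represented by its probe set of highest mean. Acaca and Idh1 were chosen by their T2 slopes in these same mice, and the other 6 were added as partners of the pathway with those results known. The slopes of the 8 genes over T2 are therefore given as a description, with no test. The genes were proposed as genes of fatty acid and sterol synthesis, but none of the 8 is an enzyme of the sterol pathway, whose enzymes are given separately below.

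The animals were 5 wild-type NOD females aged 10 weeks, all in 1 group, with no treatment or engineered allele named in the labels. After MRI each pancreas was dispersed, its CD45+ leukocytes were isolated by flow cytometry, and their total RNA went onto 1 array per mouse. T2, the transverse relaxation time of the pancreas, was 35.3, 35.24, 32.77, 30.02 and 28.98 ms in mice 1 to 5. The study related gene expression in the infiltrate to this MRI signal, and the question here was whether lipid synthesis genes as a group, or only Acaca and Idh1, varied with T2. Mouse numbers run from high to low T2, and the labels used here give no order of handling. If the numbers followed that order, its effect could not be told apart from T2. With 5 arrays every slope is imprecise.

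Cells make fatty acids from citrate in the cytosol. ATP citrate lyase (Acly) splits citrate into acetyl-CoA, acetyl-CoA carboxylase (Acaca) turns that into malonyl-CoA, the committed step, and fatty acid synthase (Fasn) joins malonyl units into palmitate with NADPH as reductant. Stearoyl-CoA desaturases (Scd1 and Scd2) then introduce a double bond, while cytosolic isocitrate dehydrogenase (Idh1) and malic enzyme (Me1) supply NADPH. The transcription factor SREBP-1, encoded by Srebf1, is known to activate many of these genes, with SREBP-2 acting more on sterol genes. Activated lymphocytes and macrophages both use the pathway to build membranes.

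RefSeq start windows on GRCm38.p6 were found for 6 of the 8 genes, 10 windows in all, and 3 are shown because they belong to 2 genes that were higher at low T2 and 1 that was not. Each gives the 250 bases before a listed start, 5′ to 3′ on the strand of the gene. Capitals mark CCAAT, the box bound by NF-Y, or GGGCGG, the GC box bound by Sp1, on either strand, so that a match on the opposite strand reads ATTGG or CCGCCC.
Idh1, chr1:65186480-65186729, minus strand: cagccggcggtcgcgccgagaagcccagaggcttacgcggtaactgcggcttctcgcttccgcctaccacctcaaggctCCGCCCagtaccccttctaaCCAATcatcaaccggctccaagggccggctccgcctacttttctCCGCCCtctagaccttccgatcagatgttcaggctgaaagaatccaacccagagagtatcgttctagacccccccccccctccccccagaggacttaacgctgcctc
Acly, chr11:100528001-100528250, minus strand: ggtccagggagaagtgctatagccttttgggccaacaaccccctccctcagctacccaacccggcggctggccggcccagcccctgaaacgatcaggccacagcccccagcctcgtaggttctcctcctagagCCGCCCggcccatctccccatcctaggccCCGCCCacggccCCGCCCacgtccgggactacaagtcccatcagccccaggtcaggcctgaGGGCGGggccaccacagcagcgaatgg
Fasn, chr11:120824548-120824797, minus strand: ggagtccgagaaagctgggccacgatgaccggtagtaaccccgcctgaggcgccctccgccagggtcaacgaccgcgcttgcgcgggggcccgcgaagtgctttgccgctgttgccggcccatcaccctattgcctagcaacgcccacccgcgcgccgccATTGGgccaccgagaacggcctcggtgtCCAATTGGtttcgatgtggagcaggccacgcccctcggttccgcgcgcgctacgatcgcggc

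The Idh1 window shown held 1 CCAAT and 2 GGGCGG matches, the Acly window 4 GGGCGG matches, and the Fasn window 3 CCAAT matches, of which 2 overlap on opposite strands in CCAATTGG. Idh1 had another listed start, whose window is not shown and held 1 GGGCGG match and no CCAAT. Of the 32851 windows of this length in the table, 33.8% held CCAAT and 32.7% held GGGCGG. The E-box CACGTG, in 6.02% of all windows, and TCACCCCAC, the core of the classical sterol regulatory element, in 0.496%, were in none of the 10 windows of these genes. The 1 window listed for Acaca held none of the 4 motifs. These matches describe letters only and say nothing about binding in these cells.

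Acaca, Idh1 and Acly were higher in the mice with low T2, and Fasn and Srebf1 were nearly level. The fitted fold between the lowest and the highest T2, 6.32 ms apart, was 2.09 for Idh1, 1.77 for Acaca and 1.51 for Acly, against 1.01 for Fasn and 1.03 for Srebf1. Scd1 and Scd2 varied between mice without following T2, and Me1 was high in mouse 5 alone. All values are RMA intensities on a linear scale, a slope is the log2 change for each ms of T2, with its standard error from limma (n = 5), and 7 of the 8 genes passed the filter of a mean log2 intensity of at least 6. Me1 was under it.

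**Figure D1:**
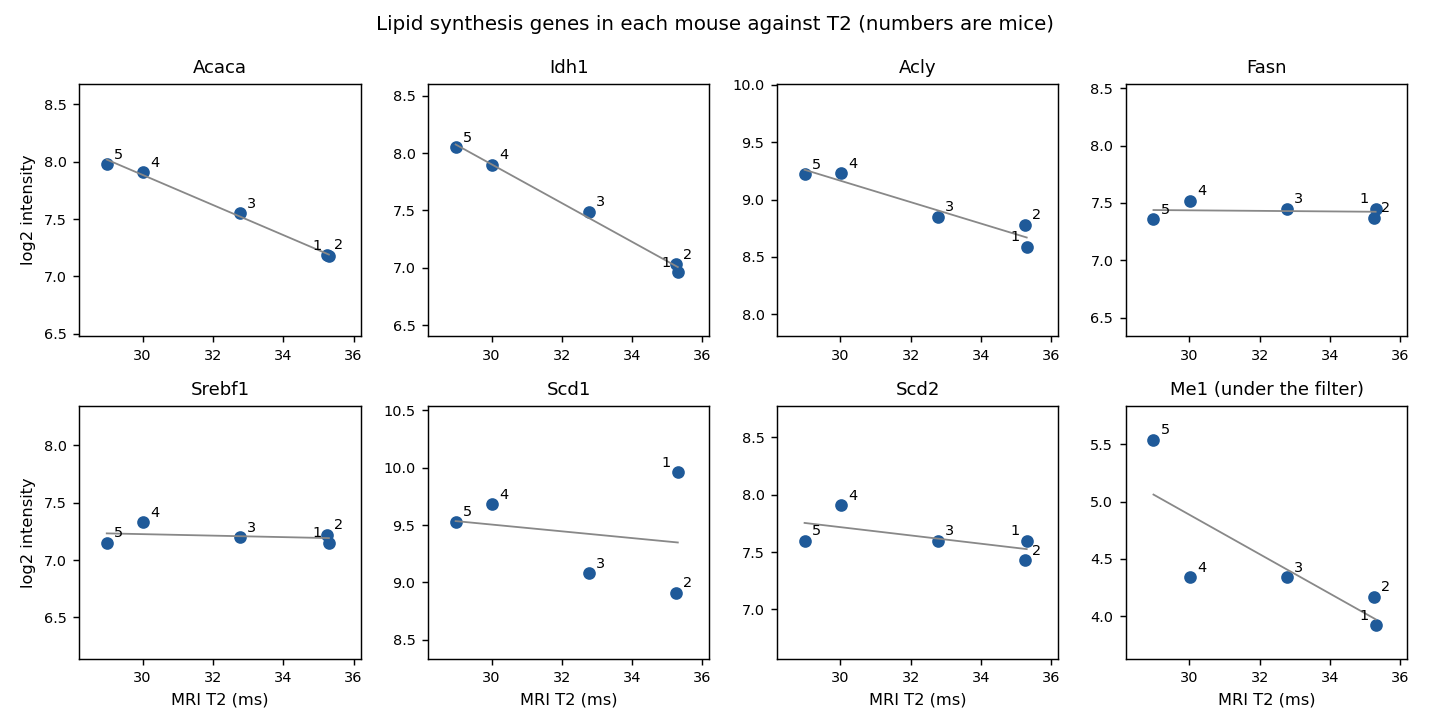
Log2 intensity of each of the 8 genes (vertical axis, the same span of log2 units in each panel) against MRI T2 in ms, with 1 point for each mouse, numbered, and the fitted line in grey. Acaca and Idh1 lie close to their lines, Acly follows with more scatter, Fasn and Srebf1 are flat, Scd1 is highest in mouse 1, and the line of Me1 is set by mouse 5.

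Acly, which makes the cytosolic acetyl-CoA, read 385, 440, 462, 601 and 598 in mice 1 to 5 (probe set 10391146). Mice 4 and 5 were above the other 3 mice and nearly equal to each other, and mice 1 and 2, with almost the same T2, differed by 0.19 on the log2 scale. The slope was -0.09 ± 0.015 log2 per ms (SE, n = 5).

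Acaca, the carboxylase that follows it, read 145, 146, 187, 241 and 253 in mice 1 to 5 (probe set 10394538). The mice of near-equal T2 were alike, mouse 3 was in between, and mice 4 and 5 were highest. The slope was -0.13 ± 0.0057 (SE, n = 5). Acaca had another probe set of its own, 10379820, which was not used to choose the gene but was hybridised to the same RNA and is no independent sample. It read 75.1, 72.6, 102, 108 and 141, with an ordinary least-squares slope of -0.13 ± 0.022, so that both probe sets gave a fold of 1.77 while the lower one scattered more.

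Idh1, the cytosolic NADPH-making isocitrate dehydrogenase, read 124, 131, 180, 239 and 266 in mice 1 to 5 (probe set 10355214). Its values kept the order of T2 in all 5 mice, and the slope was -0.17 ± 0.0079 (SE, n = 5). Mice 1 and 2 differed by 0.08 on the log2 scale, against 1.07 fitted over the whole range of T2.

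Fasn, which carries out the synthesis itself, read 175, 166, 175, 183 and 165 in mice 1 to 5 (probe set 10393970). The 2 mice of lowest T2 held its highest and its lowest value, so they overlapped the others, and the SD over the 5 mice was 0.064 on the log2 scale. The slope was -0.00238 ± 0.012 (SE, n = 5). The spread of Fasn lay at the 29.2nd percentile of the 6603 genes past the filter, against the 96.4th for Acaca, the 98.1st for Idh1 and the 92.5th for Acly. A steep slope widens the spread, so the choice of Acaca and Idh1 by slope also set their spread high.

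Srebf1, the gene of the pathway's activator, read 142, 149, 147, 160 and 142 (probe set 10386473). It was as level as Fasn, with an SD of 0.072 and a slope of -0.01 ± 0.013 (SE, n = 5), and mice 1 and 5, at the ends of the T2 range, were equal at 3 digits. The RNA level does not report the cleavage that activates the protein.

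Scd1, the first of the 2 desaturases, read 996, 482, 543, 817 and 742 in mice 1 to 5 (probe set 10467979). Its widest gap fell between the 2 mice of nearly the same T2, with mouse 1 higher than mouse 2 by 1.05 on the log2 scale. Of the 6603 genes 37, or 0.56%, differed between these 2 mice by at least as much. The slope over T2, -0.03 ± 0.074 (SE, n = 5), was smaller than its error, and it rested on single mice. The fitted log2 difference between the lowest and highest T2 was 0.19 over all mice, 0.76 without mouse 1 and -0.21 without mouse 2.

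Scd2, the desaturase of many non-hepatic tissues, read 194 in mice 1, 3 and 5, 172 in mouse 2 and 240 in mouse 4 (probe set 10463355). Its deposited values were equal on 3 arrays, which lowers its apparent spread. The slope was -0.04 ± 0.024 (SE, n = 5), and the log2 difference over T2 of 0.23 became 0.09 without mouse 4 and 0.45 without mouse 5.

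Me1, the malic enzyme, read 15.2, 18.0, 20.3, 20.3 and 46.5 in mice 1 to 5 (probe set 10405753), where the median of all probe sets was between 23.8 and 24.5 on the 5 arrays. Only mouse 5 was above that median. Its other probe set, 10595480, gave 15.0, 18.5, 18.5, 19.1 and 32.5, with mouse 5 apart again. The slope of the first was -0.17 ± 0.068, and the log2 difference over T2 fell from 1.09 to 0.39 without mouse 5. The fold of Me1 therefore rests on 1 mouse and on low signal.

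Beside all genes, the slopes of Acaca, Idh1 and Acly were steep and those of Fasn and Srebf1 shallow. Acaca and Idh1 were chosen by this slope, so their high percentiles follow from the choice. By absolute slope Idh1 lay at the 99.1st percentile of the 6603 genes, Acaca at the 98.5th, Acly at the 97.4th, Scd2 at the 84.9th, Scd1 at the 79th, Srebf1 at the 31.6th and Fasn at the 16.2nd. Both mice of lowest T2 were above the other 3 mice in 3 of the 7 genes past the filter, namely Acaca, Idh1 and Acly, as in 11.3% of all genes, while 2.17% had both mice below. All 7 slopes were negative, as were 67.9% of all slopes. Since the choice of genes used this contrast, nothing is read from these percentiles and counts. With the arrays quantile normalized again, the slopes of Fasn and Srebf1 turned positive and 43.9% of all slopes were negative, while Acaca, Idh1 and Acly stayed between 0.53 and 0.99 in log2 difference over T2. No gene passed limma's adjusted p of 0.05 over all 6603 genes (0 genes, 0%), with 349 genes at an unadjusted p under 0.05. This count was 3 with a filter of 7, 4 with arrays normalized again, 4 with array weights and 35 with genes of equal values left out.

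Profiles over the mice were also described by the root mean square difference of log2 values centred on the mean of each gene. Since Acaca and Idh1 were chosen by steep slopes in these mice, their nearness to each other and to other steep genes follows in part from that choice. Acaca and Idh1 were 0.10 apart, with 11 of the other genes nearer to Acaca, and Acaca and Acly 0.12 apart, with 21 nearer. Fasn and Srebf1, both with little spread, were 0.049 apart, with 321 genes nearer to Fasn. The desaturases Scd1 and Scd2 were 0.33 apart, with 975 genes nearer to Scd1. Between Acaca and Fasn, enzymes of consecutive steps, the difference was 0.34, and 3276 genes were nearer to Acaca. The 5 genes nearest to Acaca were Man2b1, a lysosomal mannosidase, Pltp, the phospholipid transfer protein, Hipk2, a kinase, St3gal5, a ganglioside synthase, and Axl, a receptor for apoptotic cells, at 0.058 to 0.078. Nearest to Idh1 were App, the amyloid precursor protein, Fn1, fibronectin, Lgmn, a lysosomal protease, Emilin2, a matrix glycoprotein, and Msr1, a scavenger receptor, at 0.03 to 0.099. For Acly, chosen after its values were seen, the nearest were Cryl1, Adipor2, Sorbs3, Smpdl3a and Icam2. For Scd1, also chosen afterwards, they were Bcl11a, a transcription factor of B cells and plasmacytoid dendritic cells, Cacna1i, Myo1c, Fcrl1, a B cell receptor of the Fc receptor-like family, and Cpa1, an acinar carboxypeptidase.

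Marker lists of cell types moved beside these genes, and in bulk RNA more cells of a type and more RNA per cell cannot be told apart. Of 14 macrophage genes 13 had a probe set and 10 passed the filter, all with negative slopes. Beside them 67.9% of all slopes were negative, a share that was 43.9% with arrays quantile normalized again. The mean of the 13 was 6.79, 6.91, 7.43, 7.89 and 7.98 in mice 1 to 5, a slope of -0.19 ± 0.014 (SE, n = 5), which runs in the direction of Acaca, Idh1 and Acly. The list was drawn up with earlier results of these data known, and Acaca and Idh1 were chosen by slope. Their likeness may therefore follow in part from these choices. Adgre1, a surface marker of macrophages, read 270, 274, 505, 672 and 698, while Csf1r, the receptor for macrophage colony-stimulating factor, read 625, 453, 642, 695 and 729 and Cd68, a lysosomal protein, 454, 371, 499, 572 and 520. Mertk, Mrc1 and Cd163 were under the filter. Mertk read 32.3, 32.9, 47.1, 56.8 and 67.2, Mrc1 45.3, 31.1, 40.7, 35.6 and 55.3, and Cd163 between 11.5 and 15.4. The members of the list thus did not all move alike. The part of macrophage content in the 3 profiles was not tested. Fasn and Srebf1 showed no such course over the same mice.

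**Figure D2:**
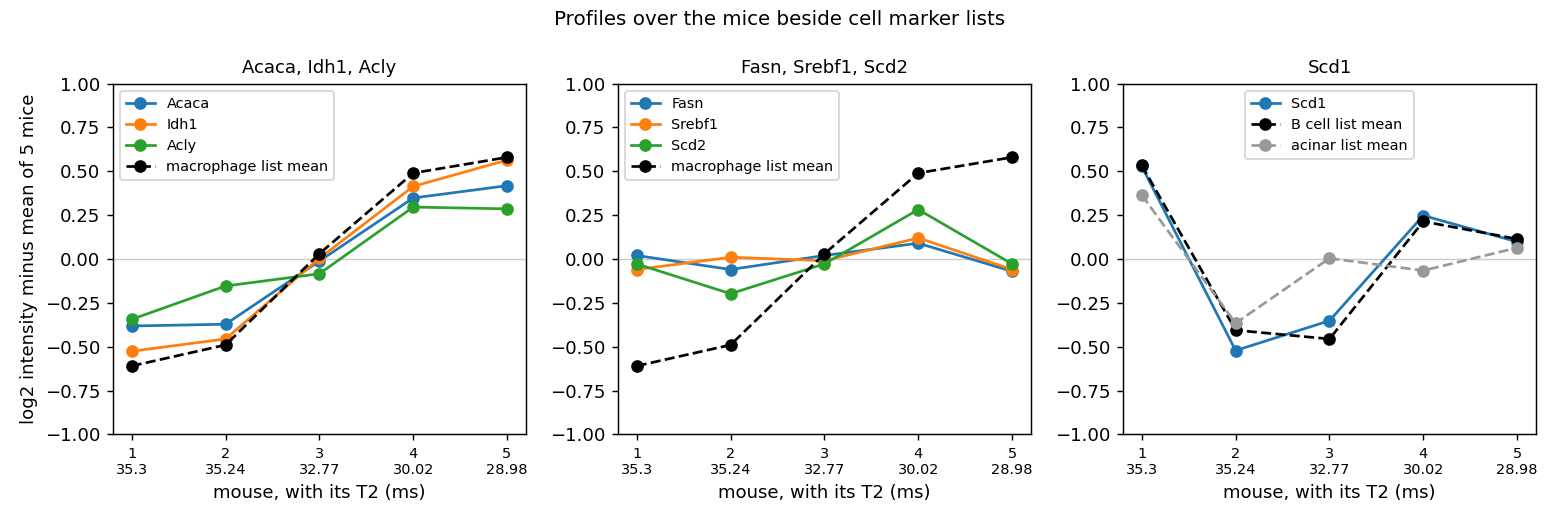
Log2 intensity minus the mean of the 5 mice (vertical axis) for named genes (solid lines) and for the mean of marker lists (dashed), with the mice ordered by T2 on the horizontal axis. Acaca, Idh1 and Acly run from low in mice 1 and 2 to high in mice 4 and 5 like the macrophage list, Fasn and Srebf1 stay near 0, and Scd1 is high in mouse 1 and low in mice 2 and 3 like the B cell list.

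B cell genes took a course over the mice like that of Scd1. Of 8 B cell genes 7 had a probe set and all 7 passed the filter, and their mean was 9.57, 8.63, 8.58, 9.25 and 9.15 in mice 1 to 5, highest in mouse 1 and lowest in mice 2 and 3. The acinar list, of exocrine cells that a CD45+ sort would remove, averaged 6.53, 5.80, 6.17, 6.10 and 6.23 over 8 of 10 genes, also highest in mouse 1 and lowest in mouse 2. Neither was tested as a source of the Scd1 signal. The T cell list of 8 genes past the filter ran the other way between these 2 mice, at 8.16 in mouse 1 and 9.12 in mouse 2. Over 9 neutrophil genes the mean was 6.53, 6.17, 7.73, 5.92 and 6.96, the widest spread of the marker lists with an SD of 0.72, and the dendritic cell list of 8 genes stayed between 5.93 and 6.11.

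Adipocytes, which a CD45+ sort would remove, express Scd1, Fasn, Acly and Me1 strongly, so their markers were read as well. Adipoq, the adipocyte hormone adiponectin, read between 8.45 and 9.70, Lep, leptin, between 6.38 and 7.16, and Plin1, the lipid droplet protein perilipin, between 23.0 and 27.5. These defining markers were near or below the median of the arrays in every mouse. Over 9 of 10 adipocyte genes the mean ran from 4.54 to 4.68, with Lipe alone past the filter. Fabp4, which macrophages also express, read 29.6 in mouse 1 and 57.9 in mouse 5. Genes of islet endocrine cells averaged between 4.00 and 4.15 over 6 genes and those of fibroblasts and endothelial cells between 4.33 and 4.50 over 10 genes, with no gene of either past the filter. Ptprc, the gene of CD45, was 11.06 ± 0.10 (SD, n = 5). A list of 11 immediate early and heat shock genes, all past the filter, averaged 7.78, 7.70, 7.92, 8.03 and 8.47, a slope of -0.095 ± 0.025 (SE, n = 5). Of the 11 slopes 10 were negative, beside 67.9% of all genes, a share that was 43.9% with arrays quantile normalized again. The list thus ran in the direction of Acaca, Idh1 and Acly, and it was highest in mouse 5, where Me1 was high. It was drawn up with earlier results of these data known. Hspa1a, an inducible heat shock protein, read 102, 150, 291, 477 and 693 in mice 1 to 5, the steepest slope of the list at -0.38. The other genes of the list did not all move alike. Nr4a1 was highest in mouse 1, at 544 against 388 to 397, Junb read 132 to 144, and Fos read 326, 248, 342, 298 and 533. The part of this list in the values of the 8 genes was not tested.

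The other genes of the pathway were listed by function and not by their slopes, but the lists were drawn up with earlier results of these data known. They are set beside all genes and not beside Acaca and Idh1. Of 135 other genes in 8 lists 122 had a probe set and 80 passed the filter. None of the 80 passed the limma test over all genes, and 5 had an unadjusted limma p under 0.05 (Elovl5, Hsd17b12, Idh2, Hadh and Sdha), each lower at higher T2, against 4.59% of all genes in that direction. Their median slope was -0.01 log2 per ms, against -0.0074 over all 6603 genes. Negative slopes were 59 of 80, or 73.8%, beside the 67.9% of all genes, and 40 of 80 with arrays normalized again, where 43.9% of all slopes were negative. The same shares of all genes stand beside the counts of negative slopes given for each list below. Both mice of lowest T2 were above the others in 10 of the 80, or 12.5%, close to the 11.3% of all genes.

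**Figure D3:**
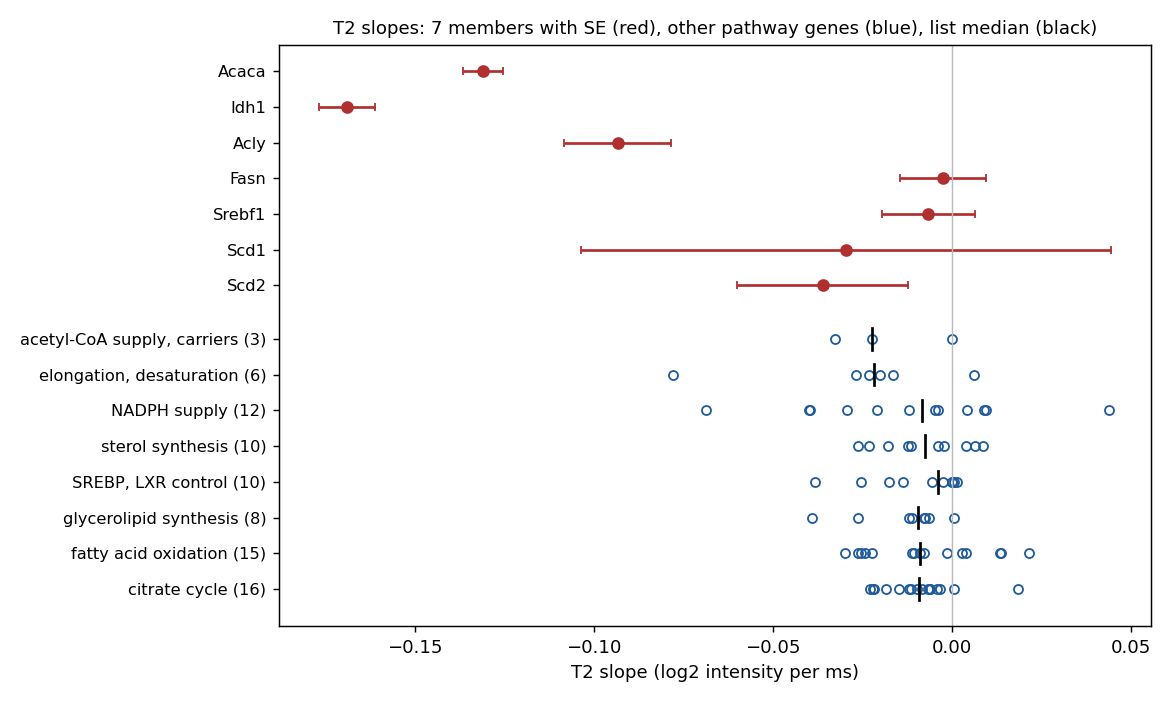
T2 slopes in log2 intensity per ms (horizontal axis) for the 7 genes past the filter with their SE (red) and for the other genes of 8 pathway lists (open circles, number of genes in brackets), with the median of each list as a black bar. The red points were chosen with their slopes known, the list medians lie between -0.022 and -0.004, and Elovl5 and Idh2 are the leftmost of the other genes.

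In the list of acetyl-CoA supply and carriers 3 of 8 genes passed the filter. Slc25a1, the citrate carrier that feeds Acly, was deposited as 147 on all 5 arrays, which leaves no spread to test. Mid1ip1, an activator of acetyl-CoA carboxylase, had a slope of -0.0222 ± 0.018 (limma adjusted p = 0.828, n = 5). Mcat, of mitochondrial fatty acid synthesis, read 78.3 in mouse 4 and 59.8 to 64.7 in the others, and Acss2, which makes acetyl-CoA from acetate, lay under the filter between 45.2 and 60.5.

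Among 6 elongation and desaturation genes past the filter, 5 slopes were negative and none passed. Elovl5, an elongase of polyunsaturated fatty acids, read 394, 443, 485, 522 and 612 in mice 1 to 5, a slope of -0.078 ± 0.014 and a fold of 1.41 (limma adjusted p = 0.444, n = 5). Its values kept the order of T2, the steepest slope in this list. Hsd17b12, the ketoacyl reductase that works with the elongases, had a smaller slope of -0.0268 ± 0.0046 and a fold of 1.12 (limma adjusted p = 0.4, n = 5). Both mice of lowest T2 were above the others in 4 of the 6 genes, Elovl1, Elovl5, Hsd17b12 and Hacd2, beside 11.3% of all genes. For 2 of them the margin was slight. Elovl1 read 190 in mouse 5 against 188 in mice 1 and 3, and Hacd2 99.7 in mouse 4 against 99.2 in mice 1 and 2. With so few genes nothing is read from this count. Elovl6, Fads1 and Fads2, textbook targets of SREBP-1, were under the filter, and Fads1 was deposited as 40.0 on all arrays.

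Of 12 NADPH genes past the filter 8 slopes were negative and none passed. Idh2, the mitochondrial relative of Idh1, read 114, 139, 152, 163 and 170 in mice 1 to 5, with a slope of -0.07 ± 0.019 and a fold of 1.35 (limma adjusted p = 0.746, n = 5). The order of the mice was that of Idh1, with a wider gap between mice 1 and 2. Pgd, of the pentose phosphate pathway, read 198, 189, 315, 222 and 241, highest in mouse 3, at -0.04 ± 0.047. Taldo1, transaldolase of the same pathway, was highest there too, at 204 against 130 to 136, as was the neutrophil list, whose part in this was not tested. The other genes of the pathway did not all have such a peak. Pgls and H6pd were highest in mouse 3 by little, at 145 and 86.3, and Tkt was highest in mouse 4, at 229. Rpia and Rpe were lowest in mouse 3, at 93.8 and 123. Me2, mitochondrial malic enzyme, read between 218 and 241. Nnt, the mitochondrial transhydrogenase, read 162 to 169 in mice 1 to 4 and 196 in mouse 5.

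Sterol synthesis genes had slopes near 0. The 10 enzymes past the filter ranged from -0.03 to 0.01 with a median of -0.0075, 7 of them negative and none passing. In none of the 10 were both mice of lowest T2 above the others, beside 11.3% of all genes, and with so few genes nothing is read from this count. Hmgcs1, the synthase that starts the mevalonate pathway, read 133, 104, 121, 124 and 124 in mice 1 to 5, with mouse 2 lowest and a slope of -0.01 ± 0.023. Sc5d, a desaturase of late sterol synthesis, had the second largest moderated statistic of the list after Ebp, the sterol isomerase, at -0.0263 ± 0.015 and -0.0178 ± 0.0083 (limma adjusted p = 0.828 for each, n = 5).

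The controllers of the pathway had small slopes too. Of 10 genes past the filter 6 slopes were negative, 2 positive and 2 were 0, and none passed. Srebf2, the gene of SREBP-2, read 474, 397, 378, 440 and 420, with a slope of 0.00148 ± 0.022. Insig1, the sterol-induced anchor of the SREBP complex and itself a target of SREBP, read 254, 268, 268, 287 and 268. Mbtps1, a protease that cleaves SREBP, read 322, 352, 313, 373 and 402 at -0.04 ± 0.018 (limma adjusted p = 0.828, n = 5), and Prkaa1, a subunit of the kinase that inhibits acetyl-CoA carboxylase, read 149 to 158 in mice 1 to 4 and 179 in mouse 5. Nr1h3, the receptor LXR alpha that induces Srebf1, was under the filter, between 15.2 and 17.8.

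Lists of neighbouring metabolism gave the same picture of small slopes. Their counts of negative slopes stand beside 67.9% of all genes, a share that was 43.9% with arrays quantile normalized again. Glycerolipid synthesis had 7 of 8 negative slopes and a median of -0.0094, with Acsl4, an acyl-CoA synthetase, at -0.0263 ± 0.012. Fatty acid oxidation, the opposing pathway, had 10 of 15 and a median of -0.0087. Cpt1a, its gatekeeper that malonyl-CoA inhibits, read 154, 141, 161, 161 and 167, at -0.03 ± 0.0098 (limma adjusted p = 0.828, n = 5). The citrate cycle had 14 of 16 and a median of -0.0091, with Sdha, a succinate dehydrogenase subunit, at -0.0228 ± 0.0042 and a fold of 1.11 (limma adjusted p = 0.444, n = 5). No gene of these 3 lists passed over all genes.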

How the data were processed

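The authors deposited RMA probe-set intensity values, linear in scale; the submitters' processing notes name Affymetrix Power Tools, and its version and the build are not stated in the sources used here. Intensities were taken to log2. Of 35556 probe sets 21789 have 1 gene symbol in GEO's platform annotation, 1621 have several and 12146 are unnamed here; a gene takes its set of highest mean. The 6603 genes whose mean log2 intensity was 6 or more were fitted on T2 with limma 3.58.1 (lmFit, eBayes; R 4.3.3), two-sided, leaving 3 residual degrees of freedom; p-values were adjusted by Benjamini-Hochberg over all genes tested, with a threshold of 0.05. For Me1 and other genes under the filter the slope comes from a fit over all 19938 genes. Slopes of list means and of other probe sets are least-squares slopes. Equal values on several arrays narrow a gene's residual spread. The members and lists were chosen with earlier results of these data known. The other genes named were the fixed genes of the pathway, the 2 of each list with the largest absolute moderated t and the 5 nearest in profile to Acaca and Idh1. Elovl1, Hacd2, Taldo1, Pgls, H6pd, Tkt, Rpia, Rpe, Mertk, Hspa1a, Nr4a1, Junb, Fos and the nearest genes of Acly and Scd1 were named after their values were seen. The fit was tested on simulated data. Alternatives were other filters, normalizations, probe-set summaries, variance models, array weights, ranks of T2, removal of genes with equal values, a threshold of 0.10 and each mouse left out. The T2 values come from the labels, which name separate mice and no batch.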

Additional observations from a re-analysis of the deposited data

Results flagged for a closer look

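Among 43 genes checked, 5 had 1 mouse apart from the other 4. In these the distance from that mouse to the next one took more than 0.71 of the range over all 5, a cut with a nominal rate of 1 in 20. The 43 are genes named here, some of them chosen by their T2 statistics or profiles, and several have equal values on arrays. The nominal rate is therefore no measure for this count. The share over all genes is not given here, and no excess is read from the count. Me1 was highest in mouse 5, at log2 5.54 against 3.92 to 4.34 (gap share 0.739), and Nnt too, at 7.61 against 7.34 to 7.40 (0.799). Gpat4, an acyltransferase of glycerolipid synthesis, was lowest in mouse 2, at 6.47 against 6.83 to 6.90 (0.821), and Mid1ip1 as well, at 6.38 against 6.61 to 6.68 (0.771). Me2 was lowest in mouse 3, at 7.77 against 7.87 to 7.91 (0.729). Me1, Gpat4, Mid1ip1 and Me2 have equal deposited values on 2 arrays, which narrows the spread of the other mice.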

How the results depend on the processing

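The number of genes past the adjusted threshold, 0, was also 0 with no filter, arrays centred on their medians, averaged probe sets, ranks of T2, trended or robust variance and without each mouse (0 to 0). It was 3 with a filter of 7, 4 with arrays quantile normalized again, 4 with array weights, 35 with genes of equal values left out and 3 at a threshold of 0.10. The number of other pathway genes past it was 0 in every one of these settings. Over the 10 settings that give the 8 genes a value, the log2 difference between lowest and highest T2 stayed between 0.75 and 0.93 for Acaca, 0.99 and 1.22 for Idh1 and 0.51 and 0.69 for Acly. That of Fasn ran from -0.06 to 0.13 and that of Srebf1 from -0.03 to 0.16, both highest without mouse 5, and each has no settled sign. Without mouse 5 the share of negative slopes over all genes was 51.4%, against 67.9%; the cause was not tested. No paired analysis was possible because the 5 mice form 1 group.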
